A study of Mus musculus with 19 samples.

Results

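Prtg, Nr6a1, Arid3a, Arid3b, Mycn, Tgfbr1 and Cdc34 are 7 genes with developmental or growth roles that are known as targets of the microRNA let-7. They were followed by gene symbol across 4 genotypes of mouse embryonic stem cells, as 7 of the 21685 genes in the deposited mRNA sequencing table. The group was assembled with measured values in view: Prtg and Nr6a1 were chosen on their lower values without Trim71, and the other 5 were added as let-7 targets. Differences with loss of Trim71 are therefore given as a description without a test, and tests are given for loss of Lin28a. All 7 passed the filter on low values, which asked for at least 10 units (log2 of 10 on the deposited scale) in at least 4 libraries and which 69.1% of all genes passed.

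The cells were male C57BL/6 embryonic stem cells grown with fetal calf serum and leukaemia inhibitory factor, and they were sorted for the surface antigen SSEA-1 before harvest. The genotype names give the Trim71 state first and the Lin28a state second. WT-WT cells were Trim fl/fl and Lin28a fl/fl (n = 4 libraries), KO-WT cells Trim-/- and Lin28a fl/fl (n = 4), WT-KO cells Trim fl/fl and Lin28a-/- (n = 5), and KO-KO cells Trim-/- and Lin28a-/- (n = 5). "WT" thus stood for an intact conditional allele. Loss of Trim71 had been induced with 500 nM 4-OHT (4-hydroxytamoxifen) for 2 days, with at least 7 further days of culture, and the labels do not say whether cells with intact Trim71 received the drug. Each state of Lin28a was represented by a pair of clones, 1 and E3 when intact and 1-4 and C1 when absent, so that Lin28a state and clone cannot be told apart. The labels name harvest days and clones but not separate cultures. The p-values measure the spread between libraries of a genotype that is left after day differences are removed.

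let-7 is a family of small RNAs that pairs through its seed with sites in messenger RNAs and lowers their stability and translation. LIN28A binds let-7 precursors and blocks their maturation, so stem cells hold little mature let-7 and its target mRNAs are kept from repression. TRIM71 is an RNA-binding protein and ubiquitin ligase that is itself a conserved let-7 target and acts in early development. The 7 genes include cell surface receptors (Prtg, Tgfbr1), nuclear regulators (Nr6a1, Arid3a, Arid3b, Mycn) and an enzyme of the ubiquitin system (Cdc34). Mature let-7 was not part of the mRNA table and was not analysed here.

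The mature sequences of the family, from RefSeq (GRCm38.p6), are shown because the seed that joins the 7 mRNAs is the stretch they share. The capitals mark the seed, bases 2 to 8 from the 5′ end, which is GAGGUAG in all of them.
let-7a-5p: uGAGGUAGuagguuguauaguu
let-7b-5p: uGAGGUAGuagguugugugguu
let-7c-5p: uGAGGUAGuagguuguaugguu
let-7d-5p: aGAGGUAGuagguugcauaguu
let-7e-5p: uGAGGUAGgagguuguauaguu
let-7f-5p: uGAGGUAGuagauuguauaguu
let-7g-5p: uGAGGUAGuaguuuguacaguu
let-7i-5p: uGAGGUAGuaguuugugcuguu
miR-98-5p: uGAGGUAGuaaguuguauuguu

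Matches to this seed were searched on the transcript strand of the longest annotated 3′ untranslated region of each gene (GENCODE M21, GRCm38). The search counted 3 forms that overlap in their core: CTACCTCA (a match to bases 2 to 8 followed by A), CTACCTC without the A, and TACCTCA (a match to bases 2 to 7 followed by A). All 7 genes held at least 2 matches. Nr6a1 held 8 in 4453 bases, Arid3b 5 in 2160 bases, Prtg 4 in 4989 bases, Arid3a 4 in 3082 bases, and Tgfbr1, Mycn and Cdc34 2 each in 4154, 913 and 339 bases. Among the 12536 tested genes with such a region, 16.9% held any match and 3.73% the longest form. One match per gene is shown, taken from the first of these forms, in the order given, that the gene holds and nearest the stop codon within that form; for Nr6a1 all 3 of the form with the A are shown. Capitals mark the match. The lower-case end of the last Nr6a1 stretch holds another counted match, of the form without the A, which is not marked.
Prtg, chr9:72912563-72912590 (+): tgctgaatagCTACCTCAgtttgctgtg
Nr6a1, chr2:38727439-38727466 (-): acaaagacaaCTACCTCAatggaaacag
Nr6a1, chr2:38726582-38726609 (-): gggcattaaaCTACCTCAtgtttctaag
Nr6a1, chr2:38723675-38723702 (-): catcatgaacCTACCTCAggctacctcc
Arid3a, chr10:79953900-79953927 (+): aagtttctttCTACCTCAggtcttttga
Arid3b, chr9:57790356-57790378 (-): caataaagctCTACCTCttcaca
Mycn, chr12:12936488-12936515 (-): actgtaagaaTACCTCAatgtttgaggg
Tgfbr1, chr4:47410833-47410860 (+): gctggttgttCTACCTCActgagagaac
Cdc34, chr10:79688117-79688144 (+): aggcgacagaCTACCTCAccgaggttcc

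**Figure D1:**
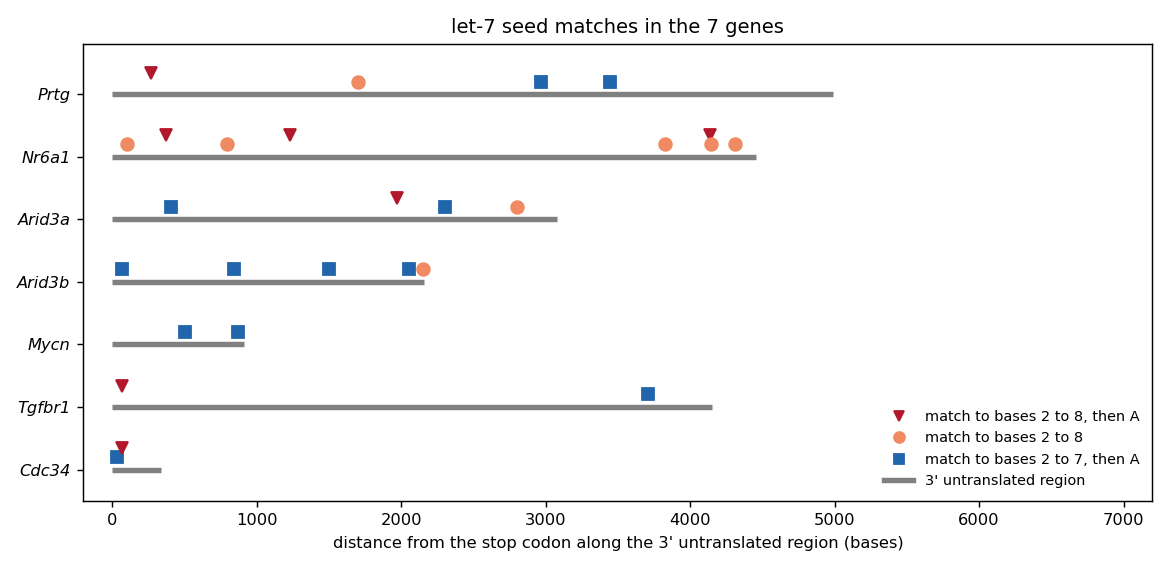
Positions of let-7 seed matches (markers, by form) along the longest annotated 3′ untranslated region (grey line) of each gene, in bases from the stop codon. Nr6a1 carried 8 matches and Mycn, Tgfbr1 and Cdc34 carried 2 each, while Arid3b and Mycn had no match of the longest form.

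Regions of similar length (within 20% of the gene's own) that held at least as many matches were counted, with the gene's own region included. They made up 0.111% of 901 regions for Nr6a1 and 0.162% of 1856 for Arid3b. The share was 0.321% of 935 regions for Cdc34, 0.334% of 1498 for Arid3a, 1.04% of 1639 for Mycn, 1.7% of 705 for Prtg and 9.69% of 1022 for Tgfbr1. Tgfbr1 was thus the least set apart of the 7 by its number of matches. All 7 are known let-7 targets and let-7 pairs through its seed, so these shares describe the choice of genes and are no support for it. A match is a run of letters in an annotated region, and whether these cells use the longest region was not tested.

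The libraries followed their labels at the targeted genes. Trim71 averaged 10.21 in WT-WT and 10.65 in WT-KO on the log2 scale, against 8.89 in KO-WT and 9.28 in KO-KO, and the ranges of intact and null libraries did not overlap. Lin28a averaged 10.13 and 9.84 in the WT-WT and KO-WT libraries, against 8.47 in WT-KO and 8.28 in KO-KO. Both mRNAs were thus lower but still present in the null libraries, and the labels do not say which part of either gene is deleted. Read depth is unknown, since the table holds normalised log2 values and no counts. KO-WT replicate 5, labelled as a clone 1 library, was the only library of day 6. It was left out because its deposited values equalled, in every gene, the average of KO-WT replicates 1 to 4 (within 1.5e-08). This leaves clone 1 with a single KO-WT library. Day differences had been removed before deposit, and with them any level difference between clones 1 and 1-4 (days 1 and 5) and clones E3 and C1 (days 2, 3 and 4). The SDs, ranges and separations of libraries given here are of these values, and they leave out the spread between days.

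The first question was what happened to the 7 mRNAs when Lin28a was missing. In cells that kept Trim71 (WT-KO against WT-WT), 5 of the 7 fell and none rose: Prtg, Arid3a, Arid3b, Cdc34 and Nr6a1. The test called 42.4% of all 14988 genes tested in this comparison, and 22.0% as lower. With Trim71 absent (KO-KO against KO-WT), the same 5 genes fell and Tgfbr1 rose, beside 42.8% of all genes called and 22.0% called as lower. The members' median log2 difference was -0.22 with Trim71 intact and -0.39 without it, while the medians of all genes tested were -0.0077 and -0.00082. Members were called by limma at a Benjamini-Hochberg adjusted p under 0.05 over all genes tested. These Lin28a comparisons use the same 18 libraries as the Trim71 comparisons in which Prtg and Nr6a1 were noticed. The share of all genes whose genotypes separate without overlap was not computed, so separation of members is given below as a description.

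**Figure D2:**
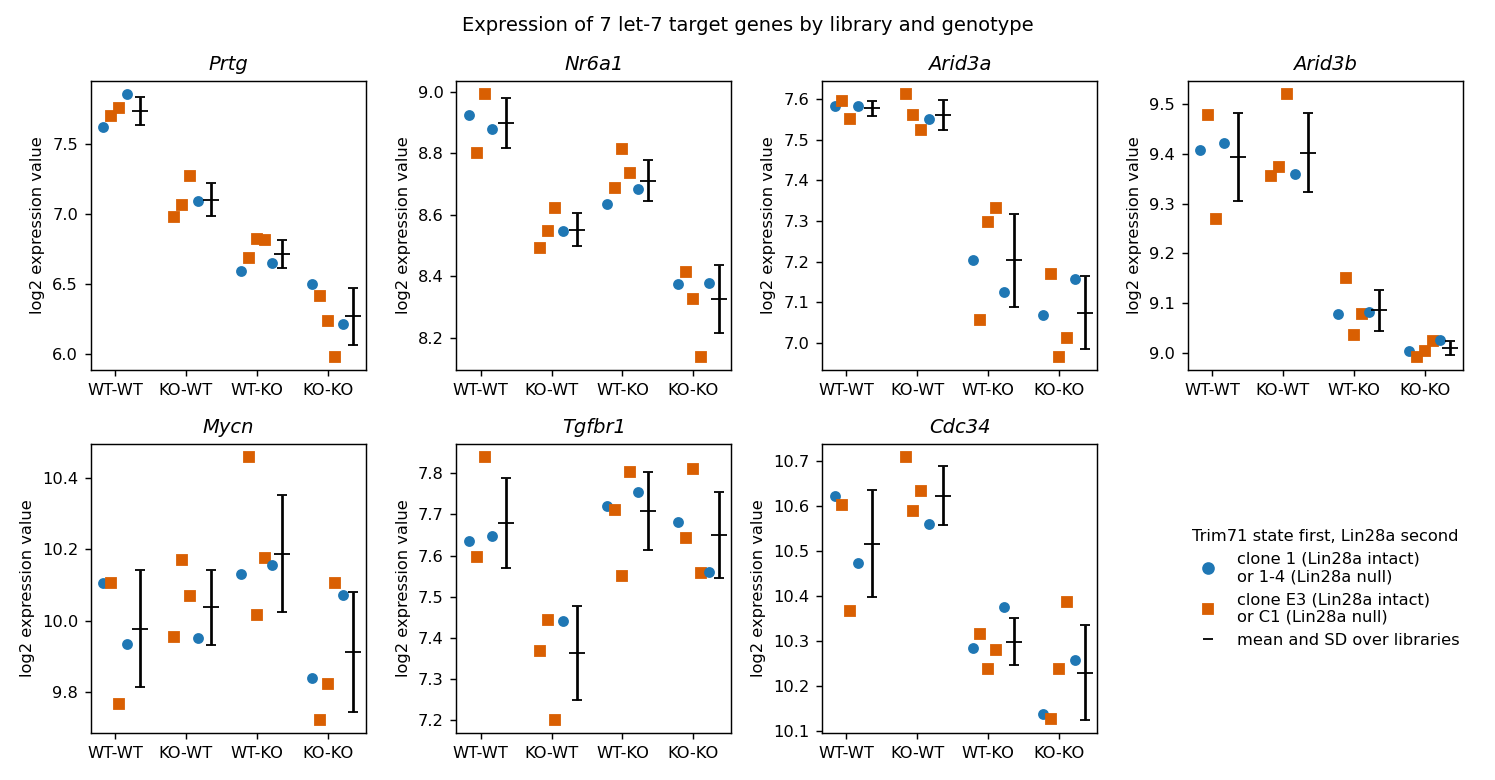
Deposited log2 expression values (vertical axis) of the 7 genes in 18 libraries, by genotype (horizontal axis, Trim71 state first); circles are clones 1 or 1-4, squares clones E3 or C1, and black bars the mean and SD. Prtg steps down from genotype to genotype without overlap of neighbours, Arid3a and Arid3b separate by Lin28a state, and Mycn libraries of all 4 genotypes overlap.

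Prtg encodes protogenin, a transmembrane receptor of the DCC immunoglobulin family that is expressed in early embryos and falls as tissues differentiate. In order of replicate, its log2 values were 7.62, 7.70, 7.76 and 7.86 in WT-WT and 6.60, 6.69, 6.82, 6.81 and 6.65 in WT-KO. They were 6.98, 7.07, 7.27 and 7.10 in KO-WT and 6.50, 6.42, 6.23, 5.98 and 6.22 in KO-KO. Every library of a genotype lay below every library of the genotype before it in the order WT-WT, KO-WT, WT-KO, KO-KO. This order holds the Trim71 differences on which Prtg was chosen. The means were 7.74 ± 0.10 (SD, n = 4), 7.10 ± 0.12 (n = 4), 6.71 ± 0.10 (n = 5) and 6.27 ± 0.20 (n = 5), a span of 1.47.

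Prtg fell with loss of Lin28a in both Trim71 states, by more than the other 6 genes differed. The log2 difference was -1.02 ± 0.10 (SE; limma adjusted p = 1.01e-06) with Trim71 intact, a 2.03-fold lower level, and it was negative in 4 of 4 same-day pairs of libraries. Without Trim71 it was -0.84 ± 0.10 (adjusted p = 8.31e-06), or 1.78-fold lower, again in 4 of 4 pairs. These calls held in either clone set alone, where the difference with Trim71 intact was -0.96 ± 0.14 in clones E3 and C1 and -1.12 ± 0.12 in clones 1 and 1-4. Prtg lies on chr9:72806874-72917291 (+), and Gm37234, an uncharacterised transcript that overlaps it on the same strand, averaged 1.19 or less in every genotype.

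Nr6a1 encodes germ cell nuclear factor, an orphan nuclear receptor that silences Pou5f1 and other stem cell genes as cells differentiate. Its log2 values were 8.92, 8.80, 8.99 and 8.88 in WT-WT and 8.64, 8.69, 8.81, 8.74 and 8.69 in WT-KO. They were 8.49, 8.55, 8.62 and 8.55 in KO-WT and 8.38, 8.41, 8.33, 8.14 and 8.38 in KO-KO. The order of the means was WT-WT (8.90 ± 0.081, SD), WT-KO (8.71 ± 0.067), KO-WT (8.55 ± 0.054) and KO-KO (8.33 ± 0.11), and only WT-WT and WT-KO overlapped among neighbours. In contrast to Prtg, the KO-WT mean lay below the WT-KO mean.

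Nr6a1 fell with loss of Lin28a by less than Prtg did. The log2 difference was -0.19 ± 0.063 (SE; limma adjusted p = 0.0251) with Trim71 intact, negative in 3 of 4 same-day pairs, and -0.23 ± 0.063 (adjusted p = 0.00892) without it, negative in 4 of 4. The first call was lost with trimmed mean scaling (-0.15, adjusted p = 0.0552), in the 3 days that hold all genotypes (-0.15, 0.172), with clones E3 and C1 only (-0.15, 0.352), and when WT-WT replicate 1 or 3 or WT-KO replicate 1 or 5 was left out (adjusted p up to 0.106). The second was lost in either clone set alone (adjusted p = 0.0548 in E3 and C1 and 0.164 in 1 and 1-4). Nr6a1 lies on chr2:38723370-38927688 (-) and overlaps the antisense gene Nr6a1os, whose reads an unstranded library kit cannot tell from its own.

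Arid3a and Arid3b encode DNA-binding proteins of the ARID family, of which Arid3a acts in the exit from pluripotency and in trophectoderm and Arid3b in embryonic mesenchyme. Arid3a values were 7.58, 7.59, 7.55 and 7.58 in WT-WT, 7.61, 7.56, 7.52 and 7.55 in KO-WT, 7.20, 7.06, 7.30, 7.33 and 7.13 in WT-KO, and 7.07, 7.17, 6.97, 7.01 and 7.16 in KO-KO. Arid3b values were 9.41, 9.48, 9.27 and 9.42 in WT-WT, 9.36, 9.37, 9.52 and 9.36 in KO-WT, 9.08, 9.15, 9.04, 9.08 and 9.08 in WT-KO, and 9.004, 8.99, 9.004, 9.02 and 9.03 in KO-KO. For both genes, all 8 libraries with Lin28a lay above all 10 without it. How many of all genes separate in this way was not computed, and 42.4% and 42.8% of them were called in the Lin28a comparisons. The SD of Arid3a was 0.019 in WT-WT and 0.037 in KO-WT but 0.11 in WT-KO and 0.089 in KO-KO.

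Both ARID genes fell with loss of Lin28a in either Trim71 state. Arid3a differed by -0.37 ± 0.067 (SE; limma adjusted p = 0.000357) with Trim71 intact and by -0.49 ± 0.067 (adjusted p = 3.07e-05) without it. Arid3b differed by -0.31 ± 0.051 (adjusted p = 0.000154) and -0.39 ± 0.051 (adjusted p = 1.49e-05). Each of these differences was negative in 4 of 4 same-day pairs. In clones E3 and C1 alone the call with Trim71 intact was missed at adjusted p = 0.0637 for Arid3a (-0.34) and 0.0533 for Arid3b (-0.28). Arid3a lies on chr10:79927043-79955018 (+). Arid3b lies on chr9:57790353-57836793 (-), opposite the antisense gene Gm17231, which averaged between 6.10 and 6.18 in the 4 genotypes.

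Cdc34 encodes a ubiquitin-conjugating enzyme that works with cullin-RING ligases to mark cell cycle regulators for degradation. Its log2 values were 10.62, 10.60, 10.37 and 10.47 in WT-WT and 10.28, 10.31, 10.24, 10.28 and 10.38 in WT-KO. They were 10.71, 10.59, 10.63 and 10.56 in KO-WT and 10.14, 10.13, 10.24, 10.39 and 10.26 in KO-KO. WT-WT replicate 3 lay within the WT-KO range, while all KO-WT libraries lay above all KO-KO libraries. Cdc34 differed by -0.22 ± 0.064 (SE; limma adjusted p = 0.0122) with Trim71 intact and by -0.39 ± 0.064 (adjusted p = 0.000147) without it, negative in 4 of 4 same-day pairs in each.

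The Cdc34 transcript has the highest GC content of the 7 at 63.3% (median of the genes with a value 50.1%). With a trend on GC content and length removed the second difference was -0.21, still called, and the first call was lost with only clones E3 and C1 (adjusted p = 0.178), in the 3 complete days (0.0657) and without WT-WT replicate 1 or 2 (0.0691 and 0.0599). Cdc34 lies on chr10:79682195-79688398 (+). Its close copy Cdc34b averaged 2.20 or less in every genotype, and reads shared between the copies could not be traced.

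Tgfbr1 encodes the type I receptor of transforming growth factor beta, a kinase that signals through SMAD proteins. Its log2 values were 7.64, 7.60, 7.84 and 7.65 in WT-WT and 7.72, 7.71, 7.55, 7.80 and 7.75 in WT-KO. They were 7.37, 7.44, 7.20 and 7.44 in KO-WT and 7.68, 7.64, 7.81, 7.56 and 7.56 in KO-KO. The KO-WT libraries were all below the libraries of the other 3 genotypes, which overlapped one another. Without Trim71, Tgfbr1 rose with loss of Lin28a by 0.29 ± 0.079 (SE; limma adjusted p = 0.00771), in 4 of 4 same-day pairs. With Trim71 intact its difference was 0.028 ± 0.079 (adjusted p = 0.798).

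The rise of Tgfbr1 was not called in clones 1 and 1-4 alone (0.17, adjusted p = 0.280) or in the 3 complete days (adjusted p = 0.0757). Tgfbr1 lies on chr4:47353222-47414931 (+) and its transcript has the lowest GC content of the 7, at 41%.

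Mycn encodes the transcription factor N-MYC, which drives proliferation and is active in stem cells and neural progenitors. Its log2 values were 10.11, 10.11, 9.77 and 9.93 in WT-WT and 10.13, 10.46, 10.02, 10.18 and 10.16 in WT-KO. They were 9.96, 10.17, 10.07 and 9.95 in KO-WT and 9.84, 9.72, 9.82, 10.11 and 10.07 in KO-KO. Each genotype overlapped its neighbours in the order of means, WT-KO, KO-WT, WT-WT and KO-KO. The Lin28a differences were 0.21 ± 0.10 (SE; limma adjusted p = 0.110) with Trim71 intact, positive in 3 of 4 same-day pairs, and -0.12 ± 0.10 (adjusted p = 0.347) without it. Mycn, on chr12:12936093-12941914 (-), was the one member not called in either Lin28a comparison.

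**Figure D3:**
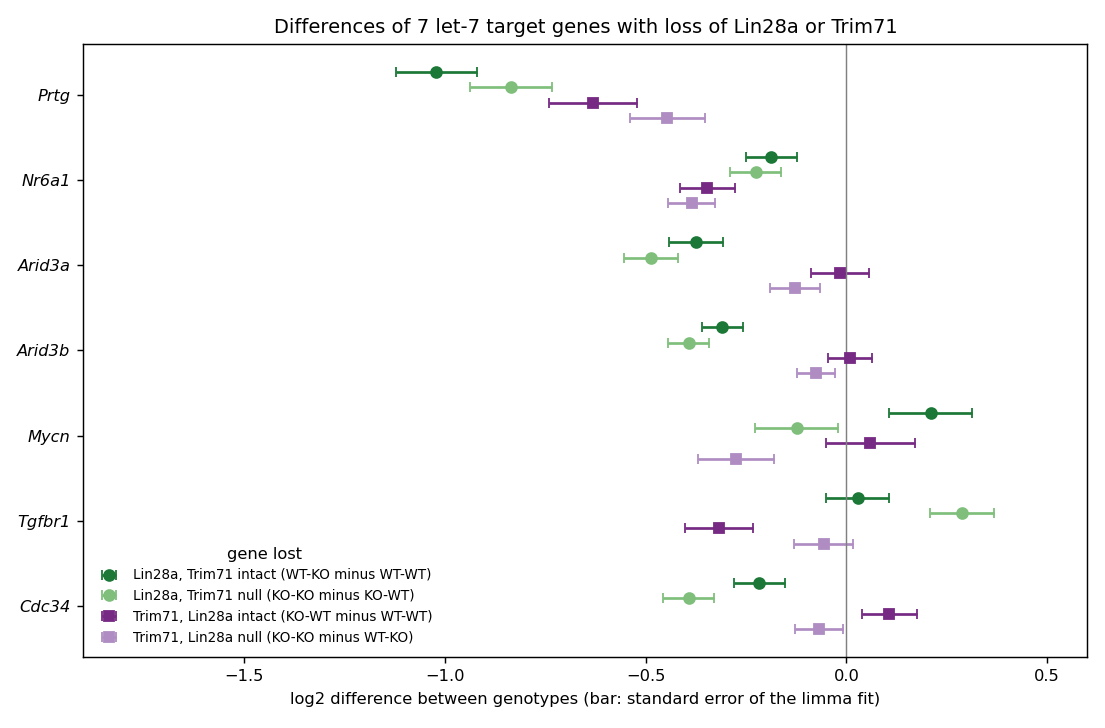
Log2 differences (horizontal axis) of the 7 genes with loss of Lin28a (circles) or Trim71 (squares), in the presence and absence of the other gene; bars are standard errors of the limma fit. Prtg and Nr6a1 lie below 0 in all 4 comparisons, and Arid3a and Arid3b lie near 0 for loss of Trim71 with Lin28a intact (-0.016 and 0.0084).

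**Figure D4:**
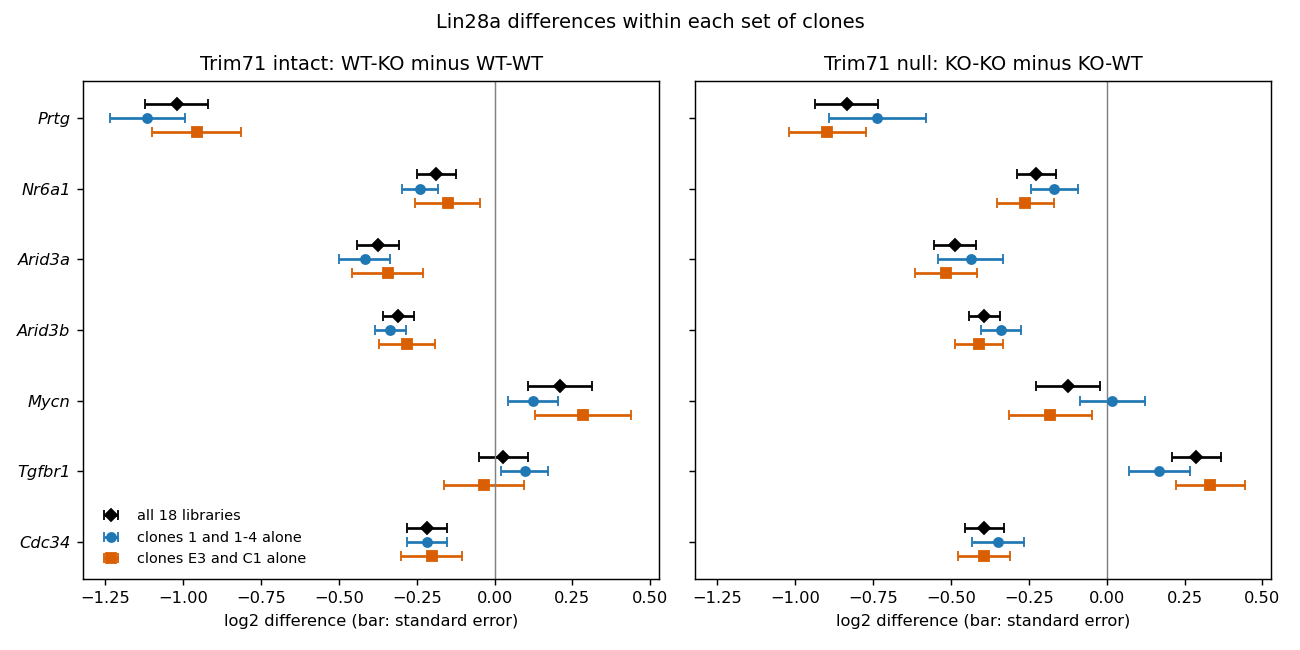
Log2 differences with loss of Lin28a in all 18 libraries (diamonds) and within clones 1 and 1-4 (circles) or E3 and C1 (squares), with standard errors; the left panel has Trim71 intact and the right panel absent. Prtg, Nr6a1, Arid3a, Arid3b and Cdc34 are below 0 in both clone sets of both panels, and Mycn (right) and Tgfbr1 (left) change sign between clone sets.

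Markers of other cell types moved with the Lin28a state in the same libraries. Of all genes tested, 42.4% were called in WT-KO against WT-WT, and 22.0% as lower. Of 8 tested trophectoderm markers 7 were called lower in WT-KO against WT-WT, led by Krt8 (-4.22 on the log2 scale) and Krt18 (-4.20). The linear values of all 10 markers summed to 4845 to 6370 units in WT-WT and 4861 to 5875 in KO-WT, against 1357 to 1588 in WT-KO and 1186 to 1465 in KO-KO, while the defining markers Cdx2 and Elf5 were under 10 units in every library. All 8 tested primitive endoderm markers were called lower, led by Dab2 (-2.78), with sums of 8844 to 9808 in WT-WT, 9284 to 11071 in KO-WT, 3779 to 4646 in WT-KO and 4387 to 5217 in KO-KO, and Foxa2 under 10 units throughout. Of 9 tested stem cell markers 8 were called higher, with sums of 35575 to 37740 in WT-WT, 38238 to 40842 in KO-WT, 45604 to 52156 in WT-KO and 48827 to 52447 in KO-KO. Fut4, a stem cell list gene for an enzyme that can make the sorted antigen SSEA-1, was low in all genotypes. Its log2 values were 3.10 to 3.39 in WT-WT, 3.08 to 3.41 in KO-WT, 2.66 to 3.07 in WT-KO and 2.77 to 2.97 in KO-KO. Other enzymes that make this antigen were not looked at, so the Fut4 level does not speak for the antigen.

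Of 10 listed fibroblast markers, only 4 were in the table and tested. Of these, 3 were called lower in WT-KO against WT-WT, beside 22.0% of all genes, and 1 of the 3, Col1a2, was under 10 units in every WT-KO library. The 4 markers summed to 126 to 146 units in WT-WT and 77 to 84 in WT-KO. Pdgfra, among those 3, is also in the primitive endoderm list. The neural progenitor list had 3 of 5 tested genes called higher and 1 lower, with sums of 492 to 623 in WT-WT, 436 to 488 in KO-WT, 647 to 829 in WT-KO and 660 to 696 in KO-KO. Mesoderm markers summed to 87 to 105 units over all libraries, with T, Mixl1, Gsc, Fgf8 and Hand2 under 10 in each. In KO-KO against KO-WT, 6 of 8 trophectoderm, 6 of 8 primitive endoderm and 3 of 4 fibroblast markers were called lower, and 5 of 9 stem cell markers higher with Utf1 lower, at -0.29. Of all genes, 42.8% were called in that comparison, and 22.0% as lower. The part of these other cell types in the differences of the 7 genes was not tested. In bulk RNA, fewer cells of a type and less RNA per cell cannot be told apart.

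Loss of Trim71 is described without a test. With Lin28a intact (KO-WT against WT-WT), Prtg differed by -0.63 ± 0.11 (SE), Nr6a1 by -0.35 ± 0.068 and Tgfbr1 by -0.32 ± 0.085, each negative in 3 of 3 same-day pairs. These 3 members had an adjusted p under 0.05, beside 11.2% of all genes; since the choice of members used the Trim71 comparisons, nothing is read from this count or the next ones. Arid3a differed by -0.016 ± 0.073, Arid3b by 0.0084 ± 0.055, Mycn by 0.059 ± 0.11 and Cdc34 by 0.11 ± 0.069. Nothing is read either from which members passed in other fits. In the fit of these 2 genotypes alone none of the 3 passed, and 30 of all 14988 genes did (1674 in the main fit). In clones E3 and C1 alone none of the 3 passed, and 10 of all genes did. Nr6a1 and Tgfbr1 missed the threshold in the 3 complete days, where 474 genes passed. In clones 1 and 1-4, with a single KO-WT library, the differences were -0.64 for Prtg, -0.36 for Nr6a1 and -0.19 for Tgfbr1. Tgfbr1 did not pass without WT-WT replicate 3 or 4 or KO-WT replicate 3, and its value moved to -0.14 with the GC and length trend removed. Over 14724 genes the rank correlation of this difference with GC content was 0.50.

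Without Lin28a (KO-KO against WT-KO), Prtg differed by -0.45 ± 0.094 and Nr6a1 by -0.38 ± 0.058, each negative in 5 of 5 same-day pairs. These 2 members had an adjusted p under 0.05, beside 8.38% of all genes. The Prtg value differed between the clone sets, at -0.57 in E3 and C1 and -0.27 in 1 and 1-4, and its same-day differences ran from -0.84 to -0.094. Mycn differed by -0.27 ± 0.095, negative in 5 of 5 pairs with overlapping ranges, Arid3a by -0.13 ± 0.062, Arid3b by -0.076 ± 0.047, Cdc34 by -0.069 ± 0.059 and Tgfbr1 by -0.057 ± 0.073. The members' median was -0.016 with Lin28a and -0.13 without it, against -0.0046 and -0.0093 over all genes.

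The KO-KO libraries set against the same WT-WT libraries showed the lowest Prtg and Nr6a1 levels of the series. The log2 differences were -1.47 ± 0.10 (SE) for Prtg, a 2.77-fold lower level, -0.57 ± 0.063 for Nr6a1, -0.50 ± 0.067 for Arid3a, -0.38 ± 0.051 for Arid3b and -0.29 ± 0.064 for Cdc34. These 5 had an adjusted p under 0.05, beside 45.6% of all genes. The comparison holds the Trim71 difference that the choice of members used, so it too is a description. Mycn (-0.065 ± 0.10) and Tgfbr1 (-0.029 ± 0.079) lay near 0.

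The interaction term, the Trim71 difference without Lin28a minus that with it, is built from the differences on which Prtg and Nr6a1 were noticed and is given as a description. None of the 7 members was called by limma, beside 0.0200% of all genes (3 genes; 2256 had an unadjusted p under 0.05). The term was 0.19 ± 0.14 (SE) for Prtg, -0.038 ± 0.090 for Nr6a1, 0.26 ± 0.11 for Tgfbr1 and -0.33 ± 0.15 for Mycn. Over 14724 genes its rank correlation with GC content was -0.50. With the GC and length trend removed the terms were 0.034 ± 0.12 for Prtg, -0.13 ± 0.078 for Nr6a1, 0.081 ± 0.076 for Tgfbr1 and -0.27 ± 0.14 for Mycn.

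Among other known let-7 targets, 39 of a list of 42 were tested. With loss of Lin28a, 9 were called higher and 9 lower with Trim71 intact, or 46.2% beside 42.4% of all genes, and 13 higher and 7 lower without it, or 51.3% beside 42.8%. These shares lay near the background, and the medians were 0.014 and 0.059. Hmga2, a chromatin protein of proliferating embryonic cells, fell, with log2 differences of -1.16 ± 0.074 (SE) with Trim71 and -1.17 ± 0.074 without it. Irs2, an adaptor of the insulin receptor, fell, at -0.79 ± 0.11 and -0.77 ± 0.11. Ccnd2, a G1 cyclin, fell with Trim71 intact, at -1.03 ± 0.17, and differed by -0.33 ± 0.17 (limma adjusted p = 0.126) without it. Beside them, the Prtg difference of -1.02 was of the size seen for Hmga2, and those of the other 4 members that fell were smaller. With loss of Trim71 the list had 3 genes past the threshold as higher and 4 as lower with Lin28a, and 4 and 3 without it.

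A list of genes in let-7 maturation, its control and silencing held 17 tested genes. With loss of Lin28a and Trim71 intact, 6 were called higher and 1 lower (41.2%, beside 42.4% of all genes). Without Trim71, 8 were called higher and none lower (47.1%, beside 42.8%). The list mixes genes that promote let-7 with genes that act against it, so these counts give no direction for let-7. Ago2, the Argonaute that cleaves targets, rose by 0.25 ± 0.071 and 0.37 ± 0.071 (SE). Tnrc6b, a scaffold of the silencing complex, rose by 0.23 ± 0.084 and 0.44 ± 0.084. Zcchc6, a terminal uridylyltransferase, was the 1 called lower, at -0.34 ± 0.075, and differed by -0.072 ± 0.075 without Trim71 (limma adjusted p = 0.462).

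Relatives of Prtg and partners of the other members moved in mixed directions. Of all genes, 42.4% were called with loss of Lin28a and Trim71 intact, and 42.8% without Trim71. The lists with 3 tested genes are too short to set beside these shares. Of 3 tested DCC family genes, Neo1, the receptor neogenin, rose by 0.39 ± 0.046 and 0.50 ± 0.046 (SE), and Igdcc3 rose by 0.32 ± 0.11 without Trim71. Of 3 tested genes reported as repressed by Nr6a1, Nanog, a core pluripotency factor, rose by 0.86 ± 0.077 and 0.97 ± 0.077, and Pou5f1 rose by 0.17 ± 0.051 with Trim71 intact. Pou5f1 was not called without Trim71, and the remaining tested gene was not called in either comparison. Nanog and Pou5f1 are also in the stem cell marker list. Of 12 tested ARID family genes, 5 were called higher and 3 lower with Trim71 intact, and 7 higher and 2 lower without it. Arid4b fell with Trim71 intact, at -0.59 ± 0.12, and differed by -0.068 ± 0.12 without it (limma adjusted p = 0.664). Kdm5b, a histone demethylase, rose by 0.43 ± 0.038 and 0.60 ± 0.038, and Arid5b rose by 0.50 ± 0.067 and 0.58 ± 0.067. The closest relative Arid3c did not pass the filter on low values.

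Of 12 tested genes of the MYC network, 3 were called higher and 3 lower with Trim71 intact, and 2 higher and 4 lower without it. Myc fell, at -0.64 ± 0.14 and -0.67 ± 0.14 (SE), and Mxd4, a MYC antagonist, fell, at -0.76 ± 0.16 and -0.57 ± 0.16. Zbtb17, which encodes the MYC partner MIZ-1, rose by 0.41 ± 0.050 and 0.20 ± 0.050. The transforming growth factor beta and activin list had 6 of 20 tested genes called higher and 4 lower, and 6 and 5 without Trim71. Tgfbr2, which pairs with Tgfbr1 at the membrane, fell, at -1.53 ± 0.19 and -1.38 ± 0.19. The log2 values of Tgfbr2 were low without Lin28a, at 2.89 to 3.34 in WT-KO and 3.18 to 4.07 in KO-KO. They were 4.25 to 4.98 in WT-WT and 4.59 to 5.08 in KO-WT. Both ranges without Lin28a reached below the level asked for by the filter on low values, so the sizes of these differences are uncertain. Of 12 tested cullin-RING partners of Cdc34, 2 were called higher and 4 lower, and 2 and 3 without Trim71, led by Ube2m, the NEDD8-conjugating enzyme, which fell, at -0.23 ± 0.050 and -0.38 ± 0.050.

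**Figure D5:**
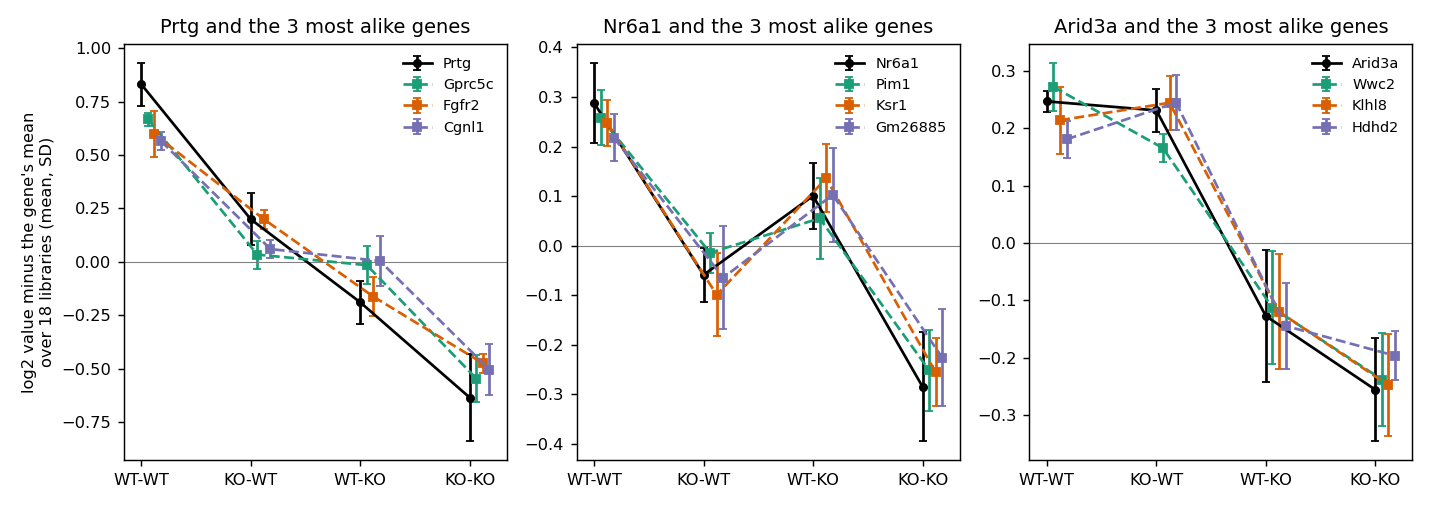
Genotype means and SD (log2 value minus the gene's own mean over 18 libraries, vertical axis) of Prtg, Nr6a1 and Arid3a (solid lines) with the 3 tested genes of most alike pattern (broken lines), by genotype (horizontal axis). Fgfr2 is lower at each step from WT-WT to KO-KO, as Prtg is, while Gprc5c and Cgnl1 libraries overlap between KO-WT and WT-KO, and Nr6a1 and Pim1 are lower in KO-WT than in WT-KO.

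For the 3 members whose genotype means spanned at least 0.4, the tested genes of most alike pattern were taken by the root mean square difference of centred log2 values over 18 libraries. For Prtg, whose own root mean square deviation was 0.55, they were Gprc5c (0.168), Fgfr2 (0.191) and Cgnl1 (0.208). Fgfr2 encodes a fibroblast growth factor receptor and averaged 7.65, 7.26, 6.89 and 6.58 in WT-WT, KO-WT, WT-KO and KO-KO. For Nr6a1 (0.22) they were the kinase gene Pim1 (0.0665), Ksr1 (0.0770), which encodes a scaffold of the RAS pathway, and Gm26885 (0.0912). Pim1 and Gm26885 overlap on opposite strands in GENCODE M21, so their reads cannot be told apart in an unstranded library. For Arid3a (0.23) they were Wwc2 (0.0498), Klhl8 (0.0557) and Hdhd2 (0.0663).

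Among the 7 themselves, Arid3b and Cdc34 were the most alike pair, at 0.0805, followed by Arid3a and Arid3b at 0.108. Prtg and Nr6a1 differed by 0.38. Arid3a, the member nearest to Prtg at 0.36, held place 427 among all tested genes ordered by likeness to Prtg.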

How the data were processed

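The authors deposited 1 table of normalised expression values for 21685 genes and 19 libraries. The values behave as log2 values, as read from the deposited values themselves, which run from -0.71 to 16.30. Per the labels' protocols, libraries came from the Illumina TruSeq RNA v2 kit, which does not mark strand, and were sequenced in pairs on a HiSeq1500. The submitters' processing notes name CASAVA 1.8, STAR and DESeq2 without their roles, and the genome build and annotation are not given in the sources used here. Fitted day terms were at most 1.7e-08, so day effects had been removed before deposit.

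KO-WT replicate 5, whose deposited values equalled the average of KO-WT replicates 1 to 4, was left out. By its labels it is a library of clone 1 and the only one of day 6. A day term takes up all of a sole library's difference from its genotype mean. limma 3.58.1 in R 4.3.3 was fitted to 18 libraries in 1 model, with 4 genotype means and day terms (10 residual degrees of freedom, trended variance prior), on 14988 genes with at least 10 units in at least 4 libraries. Pairing comes from the labelled harvest day, and a check of it by correlation is void because day effects were removed. Coordinates and 3′ untranslated regions come from GENCODE M21 (GRCm38), whose transcripts gave GC content and length for 98.2% of the tested genes.

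The members and lists were chosen with earlier results of these data known. Named are the 7 members, the targeted genes, the 3 genes most alike to members spanning at least 0.4, and up to 3 genes per list among those called with loss of Lin28a, taken by absolute difference. Marker genes are named as the largest differences of their list. A result for 1 list gene is not reported here.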

Additional observations from a re-analysis of the deposited data

Results flagged for a closer look

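Of 28 groups of libraries (7 genes in 4 genotypes), 1 held a library far from the others by Dixon's test at the 95% level, a test that flags about 1 in 20 groups by chance. Arid3b in KO-WT replicate 3 (clone E3, day 4) read 9.52 on the log2 scale, against 9.37 for the next highest KO-WT library; the gap was 0.885 of the group's range, over the critical value for 4 libraries. The Arid3b differences with loss of Lin28a were called in all 18 fits that left out 1 library each.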

How the results depend on the processing

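Leaving out each of the 18 libraries in turn kept the direction and call of 732 member differences, while 9 lost a call, 2 gained one and 13, none of them called, changed sign. Other alternatives kept 454, with 26 calls lost, 4 gained and 13 sign changes of uncalled differences. The number of members called with loss of Lin28a and Trim71 intact ran from 3 to 5 over the left-out libraries, and was 1 with clones E3 and C1 only and 3 in the 3 complete days. With loss of Trim71 and Lin28a intact it was 0 in the fit of those 2 genotypes alone, 0 in clones E3 and C1, 1 in clones 1 and 1-4 and 1 in the 3 complete days; without Lin28a it was 1 in either clone set. These fits hold fewer libraries, and calls over all 14988 genes fell as well. For KO-WT against WT-WT, 30 genes were called in the 2 genotypes alone, 10 in clones E3 and C1 and 474 in the 3 complete days, against 1674 in the main fit. For WT-KO against WT-WT, 2323 were called in clones E3 and C1 and 4708 in the 3 complete days, against 6351. Uncalled differences that changed sign in clones 1 and 1-4 were the Nr6a1 interaction (0.072), Arid3b (-0.062) and Mycn (-0.081) in KO-WT against WT-WT, and Mycn in KO-KO against KO-WT (0.017). With the GC and length trend removed they were Arid3b (-0.032), Mycn (-0.0086) and Cdc34 (-0.025) in KO-WT against WT-WT, Tgfbr1 in KO-KO against WT-WT (0.078) and the Cdc34 interaction (0.016). The others were Arid3a in KO-WT against WT-WT with 75th percentile scaling (0.0014), Mycn in KO-KO against WT-WT in the 3 complete days (0.065), Tgfbr1 in WT-KO against WT-WT in clones E3 and C1 (-0.035) and Tgfbr1 in KO-KO against WT-WT with trimmed mean scaling (0.0082). The cause was not tested. Over the left-out libraries the ranges that crossed 0 were -0.086 to 0.026 (Nr6a1 interaction), -0.041 to 0.0032 (Arid3a), -0.053 to 0.049 (Arid3b) and -0.045 to 0.12 (Mycn) in KO-WT against WT-WT, and for Tgfbr1 -0.010 to 0.10 in WT-KO against WT-WT and -0.087 to 0.044 in KO-KO against WT-WT. Mycn in KO-KO against WT-KO was called without WT-KO replicate 3 or KO-KO replicate 4. The members' median with loss of Lin28a and without Trim71 was -0.29 with the GC and length trend removed.

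Without the day block, which overstates the degrees of freedom in values already freed of day effects, the fit called 7970 genes in place of 6351 for WT-KO against WT-WT, 4219 in place of 1674 for KO-WT against WT-WT, 2618 in place of 1256 for KO-KO against WT-KO, and 673 in place of 3 for the interaction. Mycn in KO-KO against WT-KO was then called (adjusted p = 0.0302), and with all 19 libraries and no block so was Mycn in WT-KO against WT-WT (0.0490). With the GC and length trend removed, Tgfbr1 in WT-KO against WT-WT was called (0.13, adjusted p = 0.0491). Other pseudocounts were not run, since the values were already on a log scale, and read depth, which sets the precision of single values, is unknown.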
